A study of Mus musculus with 281 samples.

Results

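The genes described here encode the SR proteins and the hnRNP proteins, the 2 large families of RNA-binding proteins that set where introns are cut. They are the rows of the deposited expression table whose symbol starts with Srsf and a digit or with Hnrnp, without pseudogene symbols, and whose mean level reached 1 TPM (transcripts per 1000000, corrected for length) in any of 6 cell type labels. Of 43280 symbols 30 met this rule, 10 SR protein genes (Srsf1 to Srsf7, Srsf9, Srsf10 and Srsf11) and 20 hnRNP genes. The limit decided nothing close: Hnrnpul2, the lowest gene inside, had a highest label mean of 13.9 TPM, and Srsf12, the gene outside, was at 0 in every cell. Hnrnpa1l2-ps, left out by its symbol, had a highest label mean of 0.11 TPM.

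Single cells of C57BL/6 mouse bone marrow were sorted by surface proteins, and SMART-seq2, a full-length cDNA method without molecular identifiers, gave 1 expression profile a cell. The study addressed heterogeneity among granulocyte-monocyte progenitors (GMPs). The 281 cells carry 6 labels. The 31 tpMo cells were sorted as Lin-CD115+ckit-CXCR4+Ly6C+. The 31 preNeu cells were sorted as Lin-Gr1+CD11b+CD115-SiglecF-ckit+CXCR4+. The 22 proneu cells and the Ly6C+GMP cells, 95 from 1 run of titles and 10 from another, shared 1 gate, Lin-Ckit+Sca-1-CD34+CD16/32hiLy6C+, so another criterion, not given in the labels, separates them, and 1 proneu cell has no gate. The 45 Ly6C-GMP cells came from the same gate but Ly6C-, and the 47 CMP cells (common myeloid progenitors) were Lin-Ckit+Sca-1-CD34+CD16/32lo. No animal or culture is named, so each label counts as 1 sample: no test between labels was possible, and every SD below is a spread over cells, not over animals.

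SR proteins carry an RNA recognition motif and a tail rich in arginine and serine. They bind exonic enhancers, are phosphorylated by SRPK and CLK kinases, and recruit the U1 and U2 particles to nearby splice sites. hnRNP proteins coat nascent transcripts, and many act against SR proteins by binding silencers or by looping out exons. Myeloid cells rely on this machinery, and SRSF2 is among the splicing genes recurrently mutated in human myeloid neoplasms. Many genes of both families limit their own level by splicing in an exon that marks the transcript for nonsense-mediated decay.

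The labels differed in how many genes a cell yielded, and the read depth behind the TPM values is unknown. The median number of genes at 1 TPM or more was 3082 in tpMo, 2373 in preNeu, 4204 in proneu, 4829 in Ly6C+GMP, 4514 in Ly6C-GMP and 3489 in CMP cells. In preNeu cells the 20 most abundant genes took a median of 47.1% of all TPM, against 14.2 to 22.4% in the other labels. The 6 genes listed as secondary granule markers, Ngp, Camp, Ltf, Lcn2, Cebpe and Mmp8, summed to a median of 216486 TPM in preNeu cells. Mmp8 went the other way: it was detected in 1 of 31 preNeu and 13 of 31 tpMo cells, with means of 13.5 and 216 TPM. The 6 monocyte genes Csf1r, Irf8, Klf4, Ly86, F13a1 and Ccr2 summed to a median of 3656 TPM in tpMo cells. The first list exceeded 5000 TPM in 1 Ly6C+GMP and 3 Ly6C-GMP cells, at 6492 to 68783 TPM, although it stayed at or below 2927 TPM in the rest of the cells outside preNeu. Of 6 listed primary granule genes the 5 in the table, Elane, Mpo, Prtn3, Ctsg and Ms4a3, summed to a median of 112515 TPM in proneu, 70758 in Ly6C+GMP, 53423 in Ly6C-GMP and 4081 in CMP cells. Erythroid and megakaryocyte genes had a median sum of 432 TPM in CMP cells and of 0.97 TPM or less in the other labels.

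The promoters of Hnrnpa1, Hnrnpr and Hnrnpa2b1 are shown because of their levels in TPM as deposited. The first pair of genes had far lower levels in preNeu cells than elsewhere, while Hnrnpa2b1 kept a similar mean level in all 6 labels. Each line gives the 200 bases before the RefSeq transcript start (GRCm38.p6), 5′ to 3′ on the gene's strand. Capitals mark CCAAT, read as ATTGG from the other strand, the core of the box bound by NF-Y. They also mark GGGCGG, read as CCGCCC from the other strand, the core of the GC box bound by Sp1.
Hnrnpa1 (chr15:103240197-103240396, plus strand): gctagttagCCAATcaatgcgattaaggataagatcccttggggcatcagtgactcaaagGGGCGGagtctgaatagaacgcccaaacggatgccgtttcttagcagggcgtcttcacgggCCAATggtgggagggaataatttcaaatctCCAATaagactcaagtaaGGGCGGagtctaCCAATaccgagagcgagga
Hnrnpr (chr4:136310742-136310941, plus strand): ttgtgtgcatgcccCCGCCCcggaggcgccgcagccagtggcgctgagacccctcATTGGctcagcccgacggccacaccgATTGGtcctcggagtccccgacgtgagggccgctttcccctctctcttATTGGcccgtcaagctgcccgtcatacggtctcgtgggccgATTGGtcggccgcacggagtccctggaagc
Hnrnpa2b1 (chr6:51469895-51470094, minus strand): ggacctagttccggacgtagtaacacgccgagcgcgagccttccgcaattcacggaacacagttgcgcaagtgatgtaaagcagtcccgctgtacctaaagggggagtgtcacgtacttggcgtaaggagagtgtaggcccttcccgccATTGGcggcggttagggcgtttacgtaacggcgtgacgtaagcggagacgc
The Hnrnpa1 stretch holds 4 CCAAT matches and 2 GC boxes, the Hnrnpr stretch 4 and 1, and the Hnrnpa2b1 stretch 1 and 0. RefSeq promoters of 300 bases (250 before and 50 after the start) were matched to 28 of the 30 genes, 40 promoters in all since some genes have several starts, whose windows may overlap. The letters GGGCGG were in 33 of these 40, against 60.3% of 11819 promoters of genes whose mean reached 1 TPM in some label. CCAAT was in 21 of the 40, against 38.1%, and CCGGAAG, the core bound by ETS factors, in 10, against 17.8%. TATAAA was in 4, against 6.89%. All motifs were searched on both strands, and matches of different motifs may share letters. The median GC content was 67.8% in the promoters of the 28 genes and 60.3% over the 11819. These matches are descriptions of letters and say nothing of binding.

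Transcripts of the 2 families were abundant in every label. Summed over the 10 SR protein genes, the median cell held 2557 TPM in tpMo, 1570.01 in preNeu, 2669.7 in proneu, 2719.8 in Ly6C+GMP, 2456 in Ly6C-GMP and 3199.6 in CMP. The 20 hnRNP genes summed to 5943, 2887, 5058, 5349, 5213 and 6426 TPM in the same order of labels. In TPM as deposited both sums were lowest in preNeu and highest in CMP cells, but the cells of the labels overlapped: the preNeu cell with the highest total held 15107 TPM of the 30 genes, above the highest CMP cell at 14532. When TPM was renormalised without mitochondrially encoded genes and without the 20 most abundant genes of each label, the median hnRNP sum in preNeu cells was 5733, against 6608 to 8030 in the other labels. On that scale the SR sum was 3120 in preNeu cells and 3108 in Ly6C-GMP cells, and the hnRNP sum was highest in tpMo cells, at 8030 against 7766 in CMP cells. Scaling by median ratios, with size factors from the 547 genes detected in 90% or more of cells, gave another order. The SR medians were then 2252 in tpMo, 2290.4 in preNeu, 2224 in proneu, 2061 in Ly6C+GMP, 1665 in Ly6C-GMP and 2426 in CMP cells. The hnRNP medians were 5121 in tpMo, 4415 in preNeu, 4227 in proneu, 4127 in Ly6C+GMP, 3627 in Ly6C-GMP and 4750.4 in CMP cells, so Ly6C-GMP held the lowest of both. The place of preNeu cells in the order of the sums depends on the scaling.

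**Figure D1:**
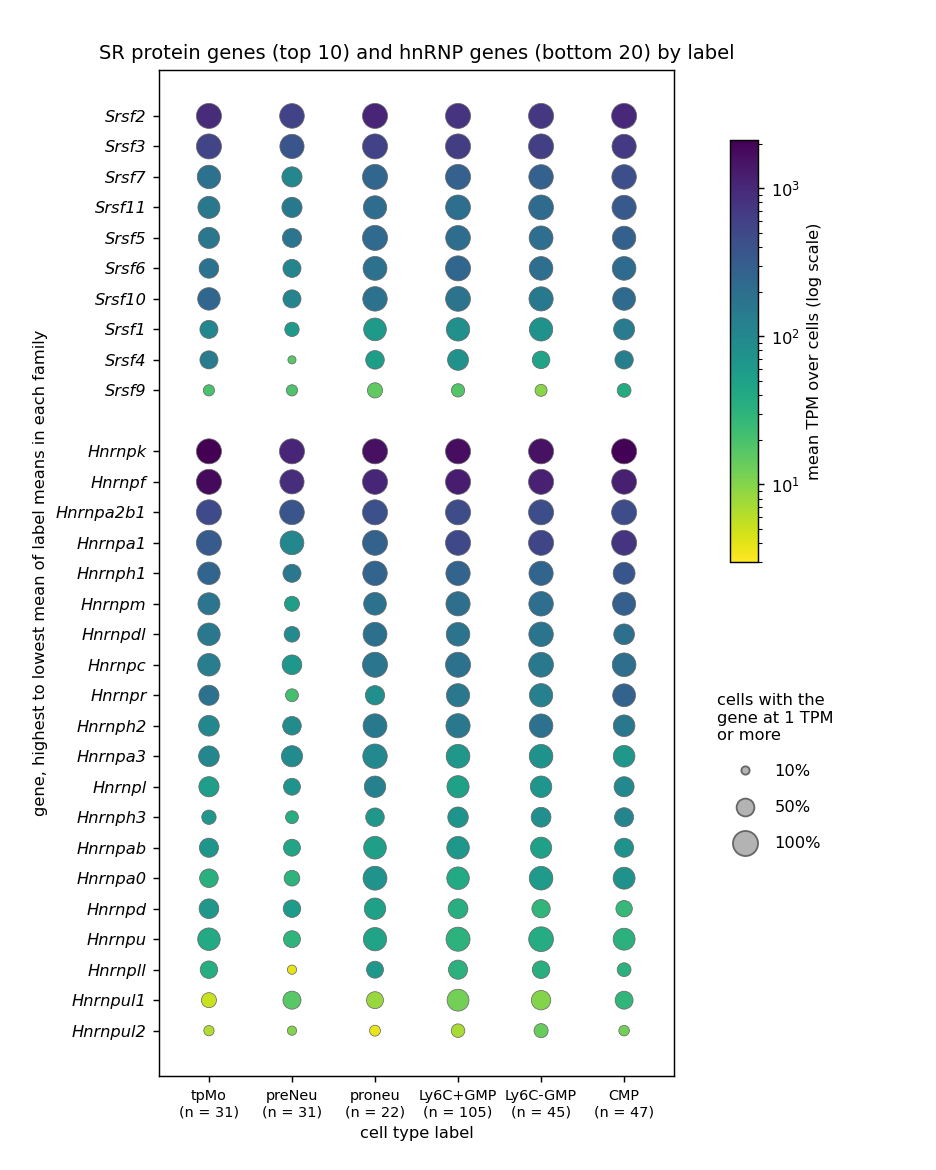
Mean TPM over cells (colour, log scale) and share of cells with the gene at 1 TPM or more (dot area) for the 10 SR protein genes and 20 hnRNP genes in the 6 cell type labels. Hnrnpk has the highest mean in every column, and most dots are smaller in preNeu cells than in the other labels.

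Hnrnpk and Hnrnpf led the hnRNP genes. Hnrnpk ranged over 601 to 4118 TPM with a median of 2015 in tpMo cells and over 4.18 to 3501 TPM with a median of 914 in preNeu cells. Its range was 131 to 3099 TPM with a median of 1583 in proneu cells and 631 to 3529 TPM with a median of 1609 in Ly6C+GMP cells. Ly6C-GMP cells held 497 to 3355 TPM with a median of 1512, and CMP cells 7.85 to 4918 TPM with a median of 1891. Hnrnpk, a KH-domain protein that binds C-rich RNA and acts in splicing, transcription and translation, was the only one of the 30 detected in all 281 cells. Its label means were 2054 in tpMo, 1069.7 in preNeu, 1609 in proneu, 1672 in Ly6C+GMP, 1557 in Ly6C-GMP and 2003 in CMP cells. Hnrnpf, which binds G tracts near splice sites, was next in every label but proneu, where Srsf2 was higher, with means of 1760.3 in tpMo, 881 in preNeu, 1031 in proneu, 1239 in Ly6C+GMP, 1142 in Ly6C-GMP and 1167 in CMP cells. Its tpMo mean was the highest of the 6, with an SD over cells of 804 TPM, and its preNeu mean the lowest, with an SD of 962 TPM.

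Srsf2 and Srsf3 were the leading SR protein genes. Srsf2 ranged over 138 to 2038 TPM with a median of 862 in tpMo cells and over 0 to 3045 TPM with a median of 465 in preNeu cells. Its range was 359 to 2382 TPM with a median of 1020.2 in proneu cells and 49.2 to 2060.3 TPM with a median of 774 in Ly6C+GMP cells. Ly6C-GMP cells held 141 to 2439 TPM with a median of 676, and CMP cells 1.21 to 2605 TPM with a median of 905. Srsf2, an enhancer-binding factor that also acts on transcription, was below 10 TPM in 4 preNeu cells and 1 CMP cell and above 49 TPM in the rest. Its exons overlap those of Mettl23 by 460 bases and of Mfsd11 by 288 bases on the other strand, and reads in these stretches cannot be assigned by strand. Srsf3, which links splicing to 3′ end choice and mRNA export, had means of 560.1 in tpMo, 381 in preNeu, 582 in proneu, 652 in Ly6C+GMP, 616 in Ly6C-GMP and 714 in CMP cells. Srsf7, its closest relative and an export adaptor, was lower than Srsf3 within the same cell in most cells of every label, with the higher value for Srsf7 in 54 of 281 cells. Srsf5, Srsf6, Srsf10 and Srsf11 had label means between 106 and 344 TPM. Srsf1, the founding splicing activator of the family, was at 60.9 to 137 TPM, Srsf4 at 16.3 to 138 TPM, and Srsf9, the smallest contributor, at 9.496 to 38.7 TPM.

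The other hnRNP genes spread over a wide range of levels. Hnrnph1, a G-tract binder like Hnrnpf, had label means of 152 to 364 TPM, and its relatives Hnrnph2 and Hnrnph3 88.1 to 186 and 35.2 to 106 TPM. Hnrnpc, which binds U tracts, lay at 65.97 to 197 TPM and Hnrnpm at 52.8 to 294 TPM. Hnrnpd, also known as AUF1 and best known for binding AU-rich elements of unstable mRNAs, had its highest means outside the progenitor gates: they were 64.3 in tpMo, 58.4 in preNeu, 49.98 in proneu, 34.7 in Ly6C+GMP, 29.02 in Ly6C-GMP and 25.8 in CMP cells. These means rest on few cells, since the Hnrnpd median was 6.27 TPM or less in every label, and without its highest cell the preNeu mean was 36.6 TPM. Hnrnpa3, an A/B family member, also had its highest mean in tpMo cells, with 100.5 in tpMo, 91.8 in preNeu, 95.5 in proneu, 66.04 in Ly6C+GMP, 75.6 in Ly6C-GMP and 63.8 in CMP cells. Hnrnpa0 lay at 30.6 to 74.03 TPM, Hnrnpab at 44.5 to 74.1 TPM and Hnrnpdl at 93.04 to 199 TPM. Hnrnpl and Hnrnpll, which bind CA repeats, had their highest means in proneu cells, at 120.1 and 65.4 TPM, and Hnrnpll its lowest in preNeu cells at 3.902 TPM. Hnrnpll was detected in 10 of 22 proneu cells. Its proneu mean of log2(TPM + 1) was below that of Ly6C+GMP cells, with a difference of -0.20. Hnrnpu, a nuclear scaffold protein, was at 29.3 to 47.3 TPM. Its relatives Hnrnpul1 and Hnrnpul2 were low throughout, with label means of 5.1003 to 28.8 and 3.72 to 13.9 TPM.

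The paralogs Hnrnpa1 and Hnrnpa2b1, which bind similar UAG-containing silencers, moved unlike each other over the labels. Hnrnpa1 ranged over 3.23 to 992 TPM with a median of 228 in tpMo cells and over 0 to 1428 TPM with a median of 12.7 in preNeu cells. Its range was 23.9 to 633 TPM with a median of 234 in proneu cells and 16.1 to 1445 TPM with a median of 462 in Ly6C+GMP cells. Ly6C-GMP cells held 28.4 to 1259 TPM with a median of 575, and CMP cells 28.95 to 1870.1 TPM with a median of 774. The Hnrnpa1 medians thus fell into a low preNeu value, middle values in tpMo and proneu, and higher values in the GMP and CMP labels, with overlap between the cells of all 6. Hnrnpa2b1 ranged over 60.5 to 1656 TPM with a median of 424 in tpMo cells and over 0.53 to 889 TPM with a median of 361 in preNeu cells. Its range was 75.5 to 904 TPM with a median of 429.9 in proneu cells and 91.2 to 1019 TPM with a median of 450.2 in Ly6C+GMP cells. Ly6C-GMP cells held 58.1 to 1065 TPM with a median of 451, and CMP cells 35.95 to 1319 TPM with a median of 422. In TPM as deposited no label stood apart in Hnrnpa2b1. Its means were 483 in tpMo, 386 in preNeu, 426 in proneu, 467 in Ly6C+GMP, 457 in Ly6C-GMP and 474 in CMP cells, each within 1 SD over cells of the others. After renormalising without mitochondrially encoded and very abundant genes its preNeu mean was the highest, at 755 TPM, against 570 to 622 TPM in the other labels. The label means of log2(TPM + 1) spanned 0.91 log2 units for Hnrnpa2b1 and 4.94 for Hnrnpa1. Srsf9 and Hnrnpul2, both detected in few cells, were the only members with a smaller span, of 0.81 and 0.82, and Hnrnpr the only one with a larger span, of 5.40.

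**Figure D2:**
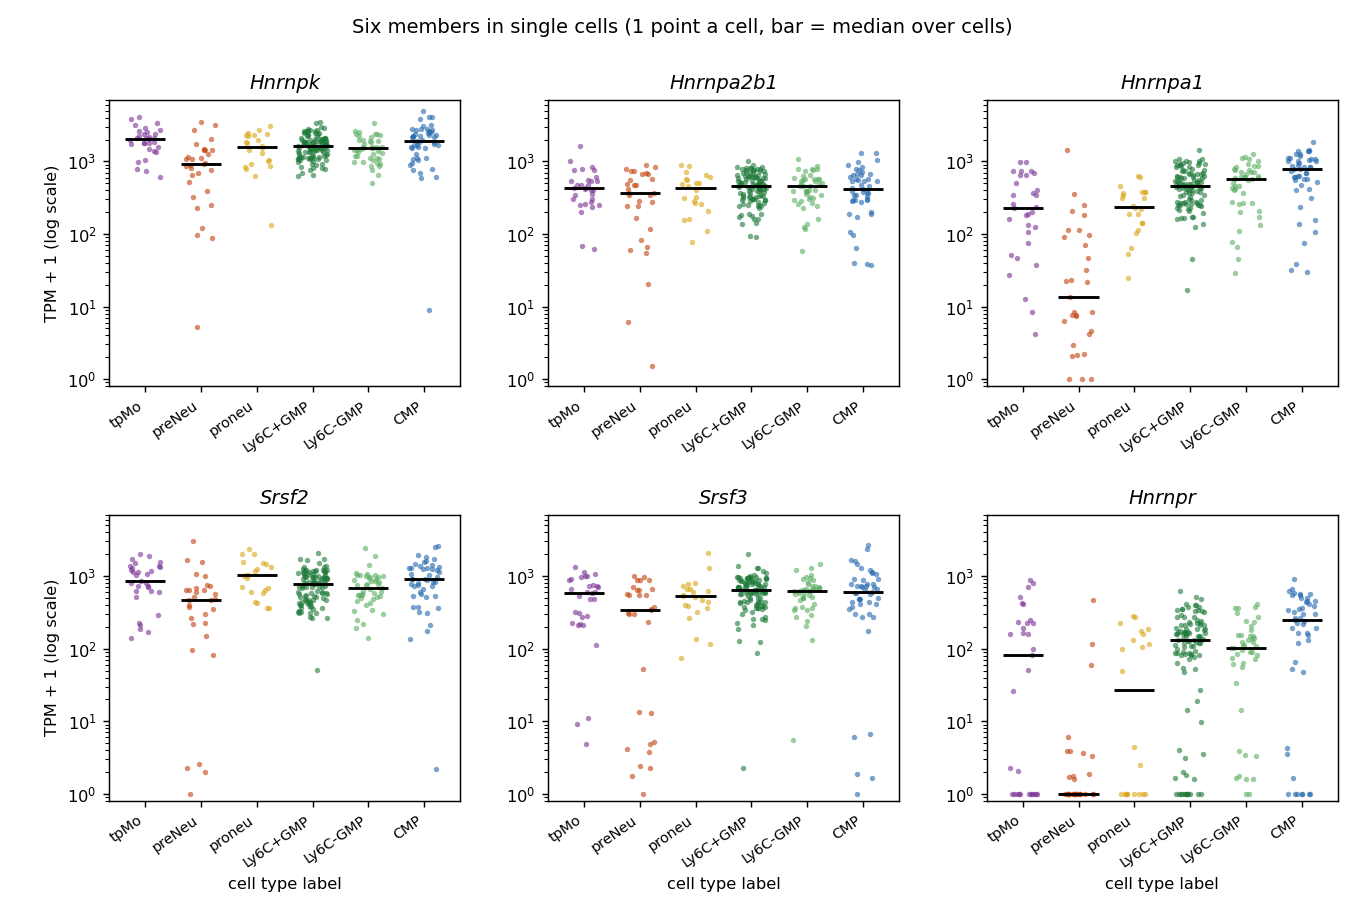
TPM + 1 on a log scale in each cell (point) for 6 members across the 6 cell type labels, with the median over cells as a bar. The Hnrnpa1 median is 12.7 TPM in preNeu cells, against 228 to 774 TPM in the other labels, while the Hnrnpa2b1 bars are near one level.

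A ratio taken within each cell, with 1 TPM added to both values, depends little on how cells are scaled. The median log2 ratio of Hnrnpa1 to Hnrnpa2b1 was -0.76 in tpMo, -3.66 in preNeu, -0.48 in proneu, 0.12 in Ly6C+GMP, 0.24 in Ly6C-GMP and 0.81 in CMP cells. Hnrnpa1 was the higher of the pair in 11 of 31 tpMo, 4 of 31 preNeu, 6 of 22 proneu, 54 of 95 run A and 5 of 10 run C Ly6C+GMP, 27 of 45 Ly6C-GMP and 33 of 47 CMP cells. The cell numbers in the titles form 4 runs, called A, B, C and H here, whose meaning the labels do not give. In Ly6C+GMP cells the median ratio was 0.14 in run A and -0.12 in run C. Ly6C-GMP cells had 0.24 in both runs B and H, and CMP cells 0.81 and 0.87. Where a run held several labels, their order in it was the same as over all runs: run C held tpMo, preNeu, proneu and Ly6C+GMP cells, and runs B and H held Ly6C-GMP and CMP cells. The pair was singled out after its values were seen.

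**Figure D3:**
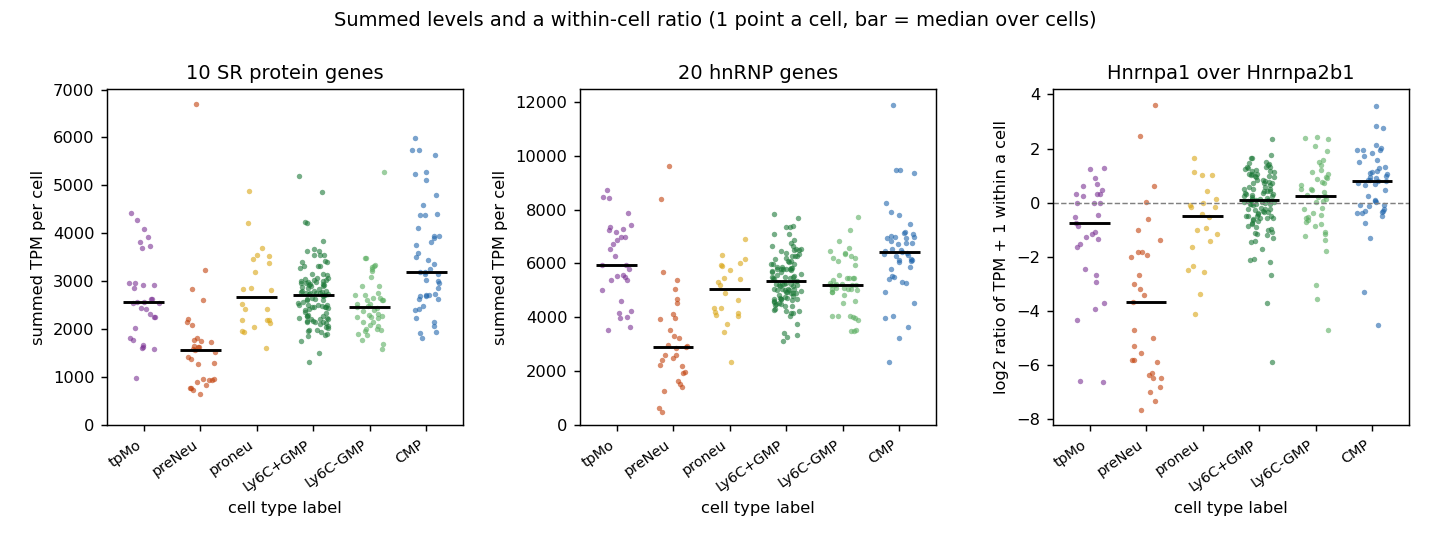
Summed TPM of the SR protein genes (left) and of the hnRNP genes (middle) and the log2 ratio of Hnrnpa1 to Hnrnpa2b1 (right) in each cell, with the median over cells as a bar. In TPM as deposited both sums, like the ratio, have their lowest median in preNeu cells, where the ratio is -3.66, and their highest in CMP cells, where it is 0.81. With median-ratio scaling both sums are lowest in Ly6C-GMP cells and the hnRNP sum is highest in tpMo cells.

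For the comparisons between labels, the difference of the mean of log2(TPM + 1) over cells was used, and a gene was called higher or lower at 1 log2 unit or more. All 30 genes passed the filter of a mean of 1 TPM in either label in all 6 comparisons. A called difference was reached in at least 1 comparison by 27 of them, and in none by Hnrnpa2b1, Hnrnpul2 and Srsf9. The share of all features called in at least 1 of the 6 comparisons was not computed, so this count has no background. In preNeu against proneu alone 39.8% of features were lower. The comparisons share labels and so are not independent of each other.

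Ly6C-GMP cells were compared with CMP cells, which differ in the CD16/32 gate. Hnrnph2 and Hnrnpdl, a relative of Hnrnpd, were higher in Ly6C-GMP cells, by 1.76 and 1.57 log2 units, and no member was lower. Over all 12582 measured features 15.6% were higher and 1.29% lower, so 2 of 30 is below the background share. Hnrnph2 had a mean of 186 ± 255 TPM over Ly6C-GMP cells, against 152 ± 300.2 TPM over CMP cells (mean ± SD over cells). Its log2 ratio of mean TPM was 0.29, and its log2 difference was 1.01 within run B and 3.24 within run H. Hnrnpdl was detected in 43 of 45 cells (95.6%, interval 84.9 to 99.5%) labelled Ly6C-GMP and in 32 of 47 cells (68.1%, interval 52.9 to 80.9%) labelled CMP (exact Clopper-Pearson 95% intervals, counting error only). Its mean was 169 TPM over Ly6C-GMP cells, against 199 TPM over CMP cells, so on the log2 ratio of mean TPM its difference was -0.23. More Ly6C-GMP cells than CMP cells thus had Hnrnpdl detected, without a higher mean. The median difference over the 20 hnRNP genes was 0.39 and over the 10 SR protein genes -0.13, beside 0.19 over all features. Within run B 7 members were higher and 1 lower, beside 20.5% and 2.34% of all features. The medians there were 0.71 over the hnRNP genes, -0.04 over the SR protein genes and 0.25 over all features. Within run H 4 members were higher and 4 lower, beside 18.4% and 7.51%. The hnRNP median turned to -0.11, with -0.24 over the SR protein genes and 0.20 over all features. On the log2 ratio of mean TPM the hnRNP median was -0.34, beside -0.20 over all features. Without the 3 Ly6C-GMP cells rich in granule transcripts 4 members were higher and 0 lower, beside 17.1% and 1.35%. Erythroid and megakaryocyte genes, at the medians given above, had 4 of 6 lower, and their part in these values was not tested.

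Among other splicing genes in that comparison, the Sm and snRNP core proteins, which build the spliceosomal particles, had 12 of 19 higher and 0 lower, with a median of 1.11. Snrpc, a U1 particle protein, had a mean of 48.6 TPM over Ly6C-GMP cells, against 25.8 TPM over CMP cells, a difference of 2.06. Lsm6 and Lsm2, of the U6 ring, differed by 1.94 and 1.73. The 14 genes of 3′ splice site recognition had 3 higher, with Sf3b6 at 1.87, and the 15 SR-related proteins 3 higher, with Luc7l at 1.59. In the 10 kinases and import factors that handle SR proteins, Clk3 was the single gene called, higher by 1.29. The 20 DNA replication genes, set beside these lists, had 11 higher and 0 lower, and the part of cell cycle in these values was not tested.

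Ly6C+GMP cells were then compared with Ly6C-GMP cells, which differ by the Ly6C gate. Srsf4 and Srsf6, members with paired RNA recognition motifs, were higher in Ly6C+GMP cells, by 1.34 and 1.32, and none was lower, beside 9.87% higher and 1.35% lower of 12399 features. Srsf4 was detected in 69.5% of cells (interval 59.8 to 78.1%) labelled Ly6C+GMP and in 22 of 45 cells (48.9%, interval 33.7 to 64.2%) labelled Ly6C-GMP. Srsf6 had a mean of 243 ± 139 TPM over Ly6C+GMP cells, against 201 ± 167 TPM over Ly6C-GMP cells, and was detected in all Ly6C+GMP cells and in 40 of 45 Ly6C-GMP cells. Of the 10 SR protein genes 9 had a difference above 0, with a median of 0.43, and the 20 hnRNP genes had a median of 0.09, beside 0.12 over all features, of which 7641 of 12399 were above 0. On the log2 ratio of mean TPM the SR median was 0.08. These labels shared no run, and a difference between runs cannot be told apart from one between labels. With Ly6C+GMP cells of run C alone (10 cells) 5 members were higher and 2 lower, beside 16.7% and 6.64% of all features. The SR median turned to -0.11 with an hnRNP median of 0.19, beside 0.07 over all features, and the Srsf4 difference was -0.70. With run A alone the same 2 genes as over all cells were the ones past 1 unit, beside 10.1% higher and 1.4% lower. On the log2 ratio of mean TPM no member reached 1 unit, beside 12.8% higher and 12.2% lower.

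In the same comparison the other splicing lists held few called genes: 1 of 10 kinases and import factors (Tnpo3, the SR protein import receptor, at 1.12), 0 of 15 SR-related proteins, 1 of 14 for the 3′ splice site (Sf3a1, at 1.07), and 1 higher and 1 lower of 19 Sm and snRNP proteins. Rbm10 and Matr3, of 27 other splicing regulators, were higher by 1.54 and 1.25. Tnpo3 had a mean of 87.2 TPM over Ly6C+GMP cells, against 72.9 TPM over Ly6C-GMP cells. In the same order Sf3a1 had means of 43.4 and 38.4 TPM, Rbm10 of 93.4 and 61.5 TPM and Matr3 of 184 and 115 TPM. The mitosis genes had 16 of 20 higher and 0 lower, and their part in the values of the SR protein genes was not tested.

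Proneu cells, from the same gate as Ly6C+GMP cells, had lower Hnrnpr, Hnrnpa1 and Hnrnph3 and higher Hnrnpa0 than Ly6C+GMP cells. The background was 15.9% lower and 2.2% higher of 12026 features, against 3 and 1 of the 30 genes. Hnrnpr, a relative of Syncrip that is active in RNA transport and splicing, was detected in 13 of 22 cells (59.1%, interval 36.4 to 79.3%) labelled proneu and in 85.7% of cells (interval 77.5 to 91.8%) labelled Ly6C+GMP. It had a mean of 81.5 ± 97.1 TPM over proneu cells, against 152 ± 129 TPM over Ly6C+GMP cells, a difference of -2.24. Hnrnpa1 had a mean of 267 ± 168 TPM over proneu cells, against 504 ± 271 TPM over Ly6C+GMP cells, a difference of -1.03, and Hnrnph3 differed by -1.03. Hnrnpa0, an intronless A/B family gene, had a mean of 72.7 ± 78.6 TPM over proneu cells, against 40.4 ± 35.3 TPM over Ly6C+GMP cells and differed by 1.12. Within run C (21 proneu and 10 Ly6C+GMP cells) the differences were -0.69 for Hnrnpr, -0.65 for Hnrnpa1, -2.59 for Hnrnph3 and 1.35 for Hnrnpa0. In that run 4 members were higher and 3 lower, beside 5.49% and 21.2% of all features. The medians, -0.27 for the SR protein genes and -0.20 for the hnRNP genes, lay near the -0.23 of all features. Within run C the SR median turned to 0.15, the hnRNP median was -0.30 and that of all features -0.27. On the log2 ratio of mean TPM over all cells of both labels, none of the 4 genes named first reached 1 unit. Hnrnpr was then at -0.89, Hnrnpa1 at -0.92, Hnrnph3 at -0.16 and Hnrnpa0 at 0.83. The members past 1 unit on that ratio were Hnrnpl at 1.22 and Hnrnpll at 1.01, beside 10.6% higher and 24.2% lower of all features.

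Other splicing regulators had more called genes than the 2 families in this comparison, with 10 of 27 lower and 1 higher. Tia1, a U-rich binding regulator, Rbm10 and Khdrbs1 (Sam68) were lower in proneu cells by more than 2 log2 units, at -2.61, -2.45 and -2.45. For the 3′ splice site 6 of 14 were lower, with Sf3b6 at -1.70 and Puf60 at -1.45. The arginine methyltransferase list, which modifies hnRNP and Sm proteins, had 3 of 8 lower, Prmt7, Prmt1 and Prmt5, at -1.91, -1.87 and -1.54. Of the 20 mitosis genes 12 were lower, and their part in the values of these lists was not tested.

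Of the 6 comparisons, that of preNeu with proneu cells had the most of the 30 genes called on the log scale. Of the 30 genes 26 were lower in preNeu cells and 0 higher, with a median of -2.76 over the SR protein genes and -1.91 over the hnRNP genes. Of 10991 features 39.8% were lower and 3.58% higher, with a median of -0.68, and among the 7888 features whose mean reached 10 TPM in either label 54.3% were lower. The 4 genes not called were Hnrnpa2b1 at -0.67, Srsf9 at -0.71, Hnrnpul2 at 0.07 and Hnrnpul1 at 0.21. The lowest values were those of Hnrnpdl at -4.08, Hnrnpc at -3.92, Hnrnph1 at -3.79, Srsf7 at -3.78, Hnrnpm at -3.64 and Hnrnpa1 at -3.52. Within run C, which holds all preNeu and 21 proneu cells, 26 were lower as well, beside 40.1% of all features. In cells of either label with 2000 to 4000 detected genes (24 preNeu and 9 proneu cells) 27 were lower and 1 higher, beside 36% and 7.87%. Scaling cells by median ratios moved the median of all features to -0.53 and that of the 30 genes to -1.90, with 23 lower, beside 34.3%.

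Some members were detected in fewer preNeu cells, some were lower in the preNeu cells that had them, and some both. Srsf6 was detected in 16 of 31 cells (51.6%, interval 33.1 to 69.8%) labelled preNeu and in 20 of 22 cells (90.9%, interval 70.8 to 98.9%) labelled proneu, and its median over the detected cells was 172 TPM in preNeu and 175 TPM in proneu. Srsf10, a factor that represses splicing when dephosphorylated, had 178 and 175 TPM in its detected preNeu and proneu cells, which were 16 of 31 and 21 of 22. For Srsf6, Srsf10, Hnrnph1 (217 TPM in preNeu and 214 TPM in proneu) and Hnrnpdl (218 and 194 TPM) the share of cells was lower in preNeu while the medians over detected cells were close. The mean of log2(TPM + 1) over detected cells was still lower in preNeu, at 6.37 against 7.25 in proneu for Srsf6, 6.57 against 7.52 for Hnrnph1 and 6.14 against 7.14 for Hnrnpdl. For Srsf10 it was 7.11 in preNeu and 7.27 in proneu. For Hnrnpa1 the level differed: it was detected in 28 of 31 cells (90.3%, interval 74.2 to 97.96%) labelled preNeu, with a median of 21.1 TPM among them, and in all 22 proneu cells, with a median of 234 TPM. Of the 28 preNeu cells with Hnrnpa1, 12 were below 10 TPM. Hnrnpr was low by both measures, with 8 of 31 preNeu cells at a median of 4 TPM and 13 of 22 proneu cells at 132 TPM. Srsf2 and Hnrnpk were detected in nearly all cells of both labels, with medians over detected cells of 469.99 TPM in preNeu and 1020.2 TPM in proneu for Srsf2, and 914 and 1583 TPM for Hnrnpk. These levels in detected cells were added after the data were seen, and whether an undetected gene was absent or missed cannot be told apart at an unknown depth.

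**Figure D4:**
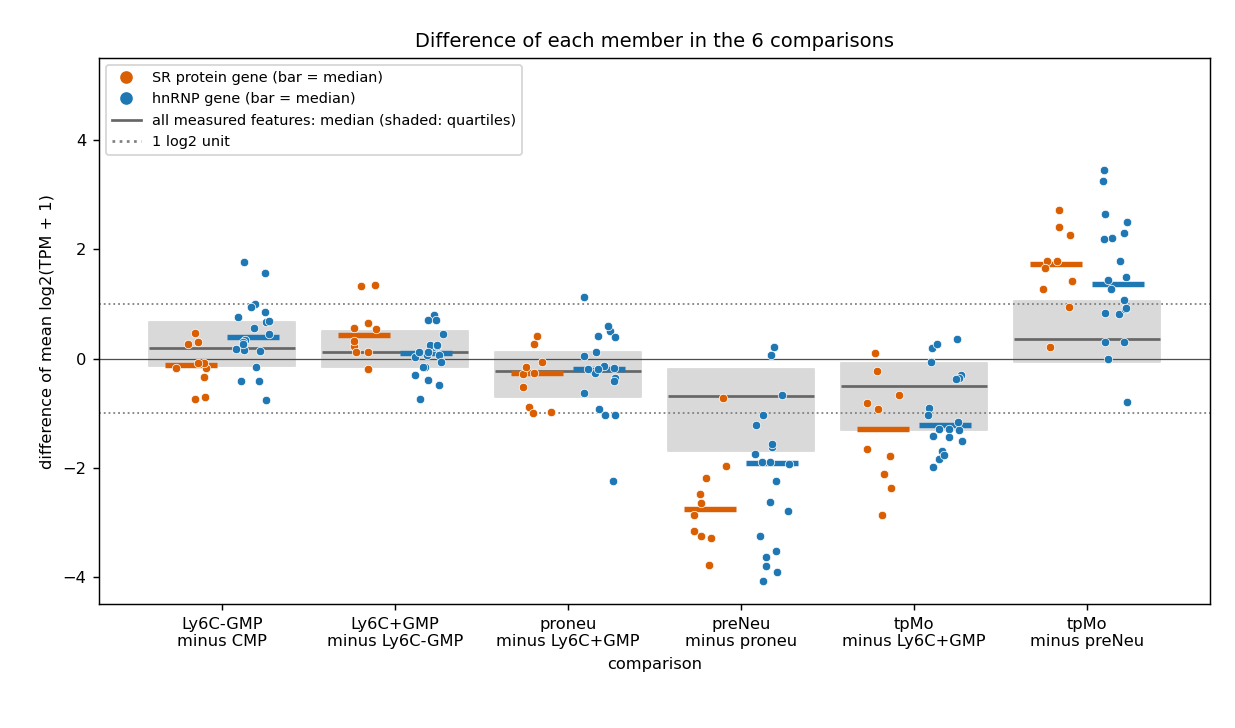
Difference of the mean of log2(TPM + 1) for each SR protein gene (orange) and hnRNP gene (blue) in the 6 comparisons, with the median of each family as a bar. Grey shows the median and quartiles of all measured features and the dotted lines 1 log2 unit. The points lie farthest from 0 in preNeu minus proneu, where 26 of 30 are below -1.

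How cells were averaged decided the size of the preNeu difference. On the log2 ratio of mean TPM, in which a few cells with high values count in full, the median over the 30 genes was -0.71, with 9 lower and 1 higher. Over all features it was -0.86, with 46.9% lower and 17.2% higher. When the TPM values were also renormalised without mitochondrially encoded and very abundant genes, the median over the 30 genes was -0.15, with 4 lower and 2 higher. Over all features it was then -0.39, with 39.5% lower and 24.2% higher. The 4 members that stayed lower were Hnrnpll at -3.45, Hnrnpr at -1.35, Hnrnpm at -1.20 and Srsf4 at -1.16. The 2 members higher were Hnrnpul2 at 1.70 and Hnrnpul1 at 1.39. Hnrnpa1 was at -0.89 on that scale, and 1 preNeu cell at 1428 TPM carried much of its mean: without that cell the mean was 56.004 TPM in place of 100.3 TPM. Of the 26 genes lower in preNeu cells 25 kept that direction on the ratio of mean TPM and 19 on the renormalised ratio.

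**Figure D5:**
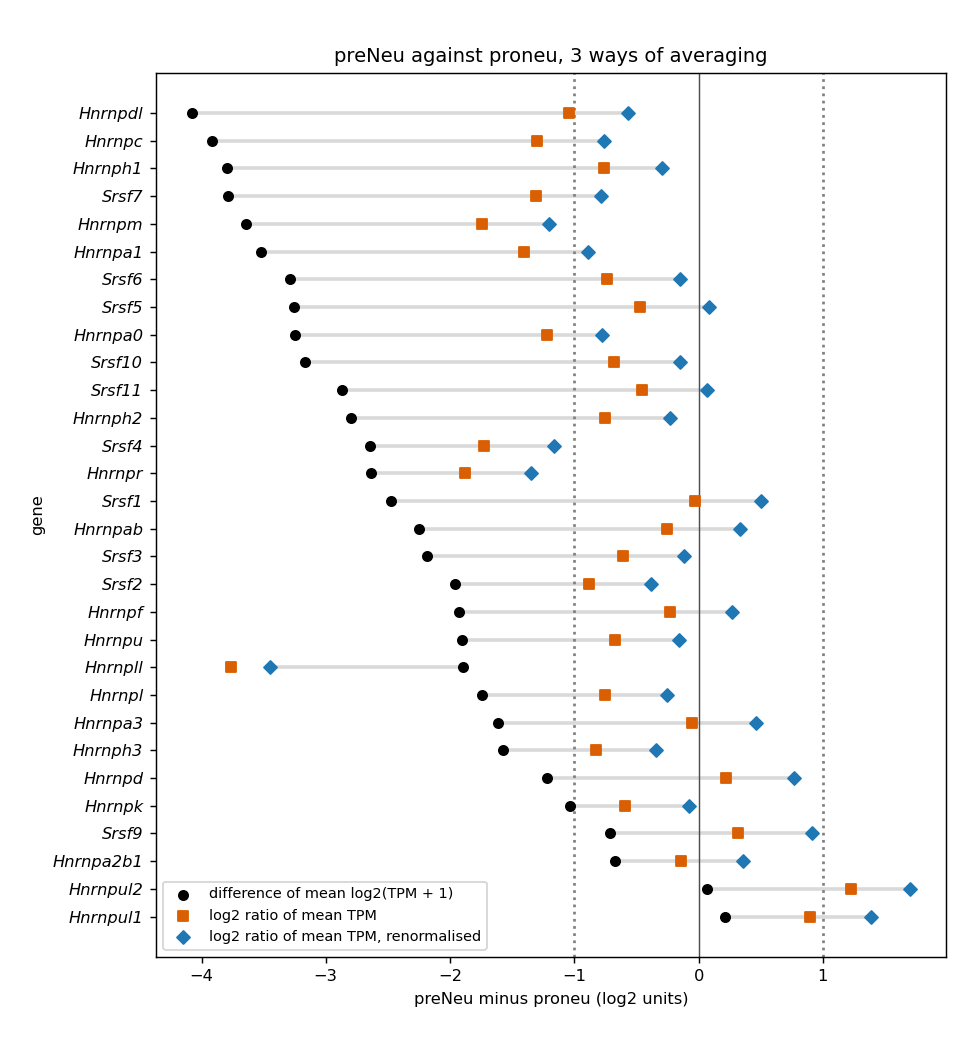
preNeu minus proneu for each of the 30 genes by 3 measures in log2 units: the difference of mean log2(TPM + 1) (black), the log2 ratio of mean TPM + 1 (orange) and the same ratio after renormalising without mitochondrially encoded and very abundant genes (blue). The black points are below -1 for 26 genes, the orange for 9 and the blue for 4.

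Most measured genes of the other splicing lists were lower in preNeu cells on the log scale as well. Of 19 Sm and snRNP core genes 17 were lower, and Snrpa, also of the U1 particle, had a mean of 14.4 TPM over preNeu cells, against 203 TPM over proneu cells. Of 14 genes of 3′ splice site recognition 11 were lower, and U2af1, which reads the terminal AG of the intron, had a mean of 86.7 TPM over preNeu cells, against 200.2 TPM over proneu cells. The SR-related list had 13 of 15 lower, the kinases and import list 7 of 10, and Srpk1, which phosphorylates SR proteins in the cytoplasm, had a mean of 63.9 TPM over preNeu cells, against 197 TPM over proneu cells. Of 27 other regulators 18 were lower, with Ewsr1 at -4.33 and Syncrip at -3.75. The nonsense-mediated decay list had 3 of 10 lower and 1 higher, beside 39.8% lower and 3.58% higher of all features. Its median was -0.47, beside -0.68 over all features. Of the DNA replication genes 18 of 20 were lower and of the mitosis genes 8 of 20 higher and 2 lower, and the part of these in the values of the 30 genes was not tested.

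Against Ly6C+GMP cells, tpMo cells had 17 of the 30 genes lower and 0 higher, beside 32.9% lower and 3.19% higher of 12057 features. Among the 8224 features whose mean reached 10 TPM in either label 47.6% were lower and 4.64% higher. The 17 lower members were 5 SR protein genes (Srsf6 at -2.87, Srsf5 at -2.37, Srsf11 at -2.12, Srsf7 at -1.79 and Srsf1 at -1.67) and 12 hnRNP genes. Those 12 were Hnrnph2, Hnrnpc, Hnrnpm, Hnrnph3, Hnrnpul1, Hnrnph1, Hnrnpr, Hnrnpa0, Hnrnpa1, Hnrnpdl, Hnrnpab and Hnrnpl, from -1.99 to -1.03. Srsf6 was detected in 19 of 31 cells (61.3%, interval 42.2 to 78.2%) labelled tpMo and in 100% of cells (interval 96.5 to 100%) labelled Ly6C+GMP, and had a mean of 181 ± 206 TPM over tpMo cells, against 243 ± 139 TPM over Ly6C+GMP cells. Srsf2, Hnrnpf, Hnrnpk and Hnrnpd had differences above 0, of 0.11 to 0.37, none called. Hnrnpf had a mean of 1760.3 ± 804 TPM over tpMo cells, against 1239 ± 499 TPM over Ly6C+GMP cells. On the log2 ratio of mean TPM 1 member was lower and the median was 0.0042. Over all features 31.3% were lower on that ratio, with a median of -0.27, so the members then lay above the background. The median member was detected in 69.4% of tpMo and 92.9% of Ly6C+GMP cells. Within run C (31 tpMo and 10 Ly6C+GMP cells) 15 were lower and 2 higher, with a median of -0.98 in place of -1.22. Of all features 36.9% were lower and 5.89% higher there, with a median of -0.59. Of the 17 genes named, 12 stayed past 1 unit there, and Hnrnpr was at -0.046, Hnrnpul1 at -0.52, Hnrnpab at -0.78, Hnrnph1 at -0.79 and Hnrnpa1 at -0.91. The monocyte genes summed to a median of 3656 TPM in tpMo and 1196 TPM in Ly6C+GMP cells, and their part was not tested.

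Of the other lists in tpMo cells against Ly6C+GMP cells, 13 of 19 Sm and snRNP genes, 10 of 14 for the 3′ splice site and 10 of 15 SR-related genes were lower. The arginine methyltransferase list had 6 of 8 lower. Prmt5, which methylates Sm proteins and several hnRNP proteins, had a mean of 1.201 TPM over tpMo cells, against 113 TPM over Ly6C+GMP cells, a difference of -4.71, and Clns1a, a partner that presents Sm proteins to it, differed by -3.97, with means of 176 TPM over tpMo and 325 TPM over Ly6C+GMP cells. Clk1, the kinase that releases SR proteins from nuclear speckles, differed by -2.21 on the log scale, although its mean TPM was 233 over tpMo cells, against 245 over Ly6C+GMP cells.

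Between the 2 labels sorted on CXCR4, 20 of the 30 genes were higher in tpMo cells than in preNeu cells and 0 lower, beside 26.3% higher and 4.53% lower of 10826 features. Among the 7854 features whose mean reached 10 TPM in either label 36% were higher and 6.15% lower. Hnrnpr at 3.45, Hnrnpa1 at 3.26, Srsf4 at 2.72, Hnrnpf at 2.65, Hnrnpm at 2.50 and Srsf10 at 2.40 led. Hnrnpr had a mean of 180.1 ± 249 TPM over tpMo cells, against 21.5 ± 87.03 TPM over preNeu cells, and was detected in 20 of 31 cells (64.5%, interval 45.4 to 80.8%) labelled tpMo and in 8 of 31 cells (25.8%, interval 11.9 to 44.6%) labelled preNeu. Hnrnpf had a mean of 1760.3 ± 804 TPM over tpMo cells, against 881 ± 962 TPM over preNeu cells. Hnrnpll, which silences exons of Ptprc (CD45) in lymphocytes, was detected in 15 of 31 tpMo and 4 of 31 preNeu cells and differed by 1.79. The remaining genes past 1 unit were Srsf1, Srsf2, Srsf3, Srsf6, Srsf7, Srsf11, Hnrnpab, Hnrnpc, Hnrnpdl, Hnrnph1, Hnrnph2, Hnrnpk and Hnrnpu, at 1.08 to 2.29. All tpMo and preNeu cells come from run C. On the log2 ratio of mean TPM 7 were higher and 1 lower, beside 45.6% and 17.8% of all features, so the higher count was below the background share. The median on that ratio was 0.70 over the 30 genes and 0.80 over all features. After renormalising as well the counts were 4 and 2, beside 36.2% and 25.5%. Median-ratio scaling gave 14 higher and 1 lower, beside 21.4% and 6.48%. It moved the median of the 30 genes to 0.92, in place of 1.47, and that of all features to 0.26, in place of 0.36.

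In this comparison Raly, a close relative of Hnrnpc without the Hnrnp symbol, had a mean of 266 TPM over tpMo cells, against 31.3 TPM over preNeu cells, and Snrpb, a core Sm protein, 1086 TPM in tpMo and 398 TPM in preNeu cells. Of 19 Sm and snRNP genes 11 were higher, of 14 for the 3′ splice site 10 and of 15 SR-related genes 8, each with 0 lower. The DNA replication genes had 17 of 20 higher. Over the 31 preNeu cells the summed TPM of the 30 genes and of the replication genes had a Spearman correlation of 0.60, over the 31 tpMo cells 0.58, and over all Ly6C+GMP cells 0.41. It was 0.13 over the 22 proneu cells, -0.10 over the 45 Ly6C-GMP cells and 0.19 over the 47 CMP cells. With the summed TPM of the mitosis genes the Spearman correlation was below 0 in every label. It was -0.41 over tpMo, -0.11 over preNeu, -0.26 over proneu, -0.40 over Ly6C+GMP, -0.14 over Ly6C-GMP and -0.36 over CMP cells. All these sums are shares of the same cell's total, so these values are descriptions.

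In the 95 Ly6C+GMP cells of run A, 16 of the 30 genes were detected in at least 90% of cells, and the 120 pairs among them had a median Spearman correlation of 0.03, from -0.33 to 0.27. The SR and hnRNP sums of a cell had a Spearman correlation of 0.35 over 31 tpMo, 0.55 over 31 preNeu, 0.40 over 22 proneu, 0.16 over all Ly6C+GMP, 0.08 over 45 Ly6C-GMP and -0.14 over 47 CMP cells, and both are shares of 1 total. The number of the 30 genes and of all genes detected in a cell had a Spearman correlation of 0.80 over 47 CMP, 0.70 over 31 tpMo, 0.54 over 45 Ly6C-GMP, 0.31 over all Ly6C+GMP, 0.22 over 31 preNeu and 0.11 over 22 proneu cells. The median cell held 21 of the 30 genes at 1 TPM or more in tpMo, 17 in preNeu, 25 in proneu, 26 in Ly6C+GMP, 25 in Ly6C-GMP and 23 in CMP. Within the cell the ratio of the SR sum to the hnRNP sum had medians of 0.416 in tpMo, 0.538 in preNeu, 0.574 in proneu, 0.492 in Ly6C+GMP, 0.465 in Ly6C-GMP and 0.531 in CMP cells. The tpMo value was the lowest, and the means of Hnrnpk and Hnrnpf were highest there.

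The gene models put a limit on what these levels can show. In GENCODE M21 (GRCm38), 9 of the 10 SR protein genes and 10 of the 20 hnRNP genes have a transcript annotated for nonsense-mediated decay, 63.3% of the 30, against 29.7% of 11118 protein-coding genes whose mean reached 1 TPM in some label. A transcript with a retained intron is annotated for 22 of the 30, 73.3%, against 59.7%. The 30 genes also have more annotated transcripts, a median of 7.5 against 5, and the part of this in both shares was not tested. A TPM value per gene adds productive and decay-bound transcripts, so the amount of productive mRNA cannot be read from it. Exons of Hnrnpm overlap March2 by 1169 bases, Hnrnpab Phykpl by 809, Hnrnpu Cox20 by 804, Hnrnpr the noncoding Gm27022 by 715, Hnrnpk Rmi1 by 330 and Hnrnph3 Rufy2 by 115. Exons of Srsf4 overlap those of Gm12992 by 1532 bases, and Gm12992 had a highest label mean of 1.08 TPM. Hnrnpm and March2 share a strand, while the other pairs lie on opposite strands. SMART-seq2 does not mark strand, so reads in all these stretches may belong to either gene. Retrocopies of Hnrnpa1 and other members in the genome can also share their reads. Hnrnpa1 lies at chr15:103240432-103246692, Hnrnpa2b1 at chr6:51460932-51469894, Hnrnpr at chr4:136310942-136359447 and Hnrnpk at chr13:58391142-58403343 in GRCm38.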

How the data were processed

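Single-cell SMART-seq2 profiles of 281 mouse bone marrow cells were used as the authors deposited them, as 1 table of TPM per symbol (a share of each cell's estimated transcripts corrected for length). Per the submitters' processing notes the values come from RSEM 1.2.19 and GRCm38. RSEM divides reads that match several genes, so near-identical copies can exchange reads. Aligner, annotation and any filter on cells: not given in the sources used here. The read depth is unknown. Each cell's TPM summed to between 998703 and 1000000, and no pair of cells held identical values. Labels came from the cell type field.

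All cells were kept, and doublets were not called. A gene was detected at 1 TPM. Labels were compared by the difference of mean log2(TPM + 1) over cells, over all symbols whose mean reached 1 TPM in either label, and called at 1 log2 unit. With no animal named, each label is 1 sample, so there is no p-value. Detection shares carry exact Clopper-Pearson 95% intervals, which cover counting error only. Other members are given by range or because a count left few. The members, lists and comparisons were chosen with earlier results of these data known. Members named with values were the 5 highest of each family, every member called, the 3 with the smallest range over labels and the 3 detected most and least often among those with a mean of 50 TPM or more, together with up to 3 genes of each other splicing list by size of difference among those that reached a mean of 5 TPM in the higher label. Alternatives were another pseudocount (0.1 or 10 TPM), filter (none or 10 TPM), averaging (log2 ratio of mean TPM + 1), scaling (median ratios over the 547 genes that 90% or more of cells had, or renormalising without 78 mitochondrially encoded or very abundant genes), subset of cells and title run. The calculation was tested on resampled values of Ly6C+GMP cells with known shifts put in. That check used genes detected in 90% or more of those cells, so it does not cover genes missing from many cells. Gene models were GENCODE M21 and promoters RefSeq GRCm38.p6. Python 3.11.15 was used with numpy 2.4.6, pandas 2.3.3, scipy 1.17.1 and matplotlib 3.10.9.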

Additional observations from a re-analysis of the deposited data

How the results depend on the processing

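No paired analysis was possible because each label is 1 sample, no replicate numbers pair the cells and no test was made. Of the values recomputed, the counts below moved by more than 1.5 times and the single genes turned in sign. Medians stand beside them, and the cause was not tested. The shares of all features called moved with the settings as well, so these counts cannot be set against the shares of the main setting. The setting of 2000 to 4000 genes was not run for comparisons with Ly6C+GMP cells, of which 3 qualified. The filters on low values moved no count or median of the 30 genes by more than 1.5 times.

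For Ly6C-GMP against CMP the 2 genes higher and 0 lower became 8 and 1 at a pseudocount of 0.1 TPM, 1 higher at 10 TPM, 6 and 4 in cells with 2000 to 4000 genes, 7 and 1 in title run B, 4 and 4 in run H, and 4 higher after renormalising. On the log2 ratio of mean TPM it was 0 and 4, with a median of -0.38, and Hnrnpdl turned to -0.23. Over all features the shares higher and lower were 26.8% and 3.18% at 0.1 TPM and 4.25% and 0.381% at 10 TPM. They were 16% and 6.64% in cells with 2000 to 4000 genes, 17.5% and 1.32% after renormalising and 14.8% and 22.6% on the ratio of means. For Ly6C+GMP against Ly6C-GMP the 2 higher became 4 at 0.1 TPM, 0 at 10 TPM, 0 on the ratio of means, and 5 higher and 2 lower with run C cells, where Srsf4 turned to -0.70. The share of all features higher was 20.1% at 0.1 TPM, 1.95% at 10 TPM and 12.8% on the ratio of means. For proneu against Ly6C+GMP the 1 higher and 3 lower became 8 lower at 0.1 TPM, 0 and 1 at 10 TPM, 2 and 0 on the ratio of means, 1 lower under median-ratio scaling, 4 higher in run C, and 0 and 7 without the cell highest in each gene. Over all features 28.8% were lower at 0.1 TPM, 3.67% at 10 TPM and 14.4% under median-ratio scaling. On the ratio of means 10.6% were higher and 24.2% lower, and without the highest cell 1.56% and 21%.

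For preNeu against proneu the median of -2.36 became -3.41 at 0.1 TPM and -1.50 at 10 TPM, beside -1.12 and -0.30 over all features. On the ratio of means the median of the 30 genes was -0.71, with 1 higher and 9 lower in place of 0 and 26, and Hnrnpd turned to 0.22. Cells with 2000 to 4000 genes gave 1 higher. For tpMo against Ly6C+GMP the 17 lower became 8 at 10 TPM, with a median of -0.53, and 1 on the ratio of means, where the median of -1.22 turned to 0.0042, Srsf1 to 0.35, Hnrnpr to 0.24, Hnrnpl to 0.10 and Hnrnpab to 0.017. Run C gave 2 higher. Of all features 13.1% were lower at 10 TPM, with a median of -0.19, and 31.3% on the ratio of means, with a median of -0.27. For tpMo against preNeu the 20 higher became 13 at 10 TPM and 7 on the ratio of means, the median of 1.47 became 0.93 at 10 TPM, 0.70 on the ratio of means and 0.92 under median-ratio scaling, and 1 gene was lower on the ratio of means, at 0.1 TPM, in cells with 2000 to 4000 genes, under median-ratio scaling and after renormalising. Over all features 13.6% were higher at 10 TPM, with a median of 0.18, and 45.6% on the ratio of means, with a median of 0.80.

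Settings chosen after seeing the data were these. Leaving out cells outside preNeu that were rich in secondary granule transcripts gave 4 higher for Ly6C-GMP against CMP. Renormalising together with the ratio of means gave, as genes higher and lower, 0 and 4 for Ly6C-GMP against CMP, 0 higher for Ly6C+GMP against Ly6C-GMP and 2 and 0 for proneu against Ly6C+GMP. It gave 2 and 4 for preNeu against proneu with a median of -0.15, 1 lower for tpMo against Ly6C+GMP with a median of -0.025, and 4 and 2 for tpMo against preNeu with a median of 0.080. In that order of comparisons the shares of all features higher and lower were 16.4% and 21.3%, 14.6% and 12.3%, and 12.1% and 24.6%. For the last 3 comparisons they were 24.2% and 39.5%, 15.4% and 33.4%, and 36.2% and 25.5%. Depth is unknown, so for any gene near 1 TPM, absence from a cell and loss in preparation cannot be told apart.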
